A study of Mus musculus with 19 samples.

Results

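Long T cell receptor beta CDR3s, those of 15 or more residues, were followed in BALB/c mice, across 19 libraries made from CD4+ T cells sorted by flow cytometry. The CDR3 is the loop of the receptor chain that is built where a TRBV, a TRBD and a TRBJ segment are joined, and it faces the peptide in the antigen groove. Members were chosen by length alone, counted as the tables list them, where the conserved cysteine at the start and phenylalanine at the end are left off. Of 1082330 distinct CDR3 amino acid sequences listed in any library, 63467 were long, which is 5.86%. Among them 49989 had 15 residues, 10768 had 16, 2231 had 17, 386 had 18, 50 had 19 and 43 had 20 or more, up to 35. The rule is a threshold on a continuum, with 154500 CDR3s of 14 residues lying just outside it and 49989 of 15 residues just inside.

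The libraries held reads of TRB transcripts amplified by multiplex PCR from sorted CD4+ TCRbeta+ cells taken on day 7, with 500000 cells behind each lymph node library and 5000 behind each heart library. Mediastinal lymph nodes, which drain the heart, came from sham-operated mice that had a thoracotomy without ligation (n = 4, "sham nodes") and from mice with myocardial infarction by ligation of the left anterior descending coronary artery (n = 3, "MI nodes"). Hearts came from infarcted mice (n = 3). Axillary nodes came from mice given Titermax Gold adjuvant alone under the skin (n = 4, "adjuvant nodes"), porcine cardiac myosin in adjuvant (n = 2, "myosin nodes") or mouse heart protein extract in adjuvant (n = 3, "extract nodes"). All operated mice received buprenorphine, and all immunized mice received adjuvant. Porcine myosin is a protein of another species, and adjuvant volume was given as either of 2 values for the antigen groups, so volume and antigen cannot be told apart. Whether a library stands for 1 animal is not given in the labels. The p-values then reflect only how far these samples spread, which may be technical. The tables hold TRB reads only, so the sort cannot be checked against markers of other cells, and more cells of a clone and more TRB RNA per cell cannot be told apart.

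During rearrangement in the thymus, nucleases trim the segment ends and terminal transferase adds bases that no template encodes, so CDR3 length records how much of each segment was kept and how much was added. The TRBD2 segment lies between the TRBJ1 and TRBJ2 clusters and can join TRBJ2 segments only. Its reading frames encode glycine-rich cores, in mouse TGG, LGG and WGG. On average, CDR3s become shorter between the unselected and the selected thymocyte.

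Node libraries held 7534295 to 9235800 reads and heart libraries 2426715 to 5126910. The number of distinct long CDR3s ran from 1600 to 9792 per node library and was 90, 129 and 194 in hearts 1, 2 and 3. In 5 node libraries (sham node 4, adjuvant nodes 1 and 3, extract nodes 1 and 3) over 50% of the long CDR3s had under 10 reads, and the median long CDR3 had 4 to 7 reads. In the other 11 node libraries it had 15 to 40 reads. These 5 libraries were set apart after seeing the data, and results were also computed without them.

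Long CDR3s took a near constant share of node reads. They made up 3.29% ± 0.131 of reads over the 16 node libraries (SD, lowest 3.12%, highest 3.596%). By length, 15 residues accounted for 2.66% ± 0.112 of node reads, 16 residues for 0.502% ± 0.0392 and 17 or more for 0.127% ± 0.0424. CDR3s of 14 residues, just outside the rule, took 9.998% ± 0.271. The share of long reads was 3.36%, 3.24%, 3.33% and 3.29% in sham nodes 1 to 4, and 3.39%, 3.35% and 3.40% in MI nodes 1 to 3. It was 3.596%, 3.12%, 3.15% and 3.25% in adjuvant nodes 1 to 4, 3.30% and 3.17% in the myosin nodes, and 3.12%, 3.13% and 3.37% in the extract nodes. In the hearts it was 2.34% (95% Wilson interval 2.32 to 2.36), 1.80% (1.79 to 1.81) and 3.21% (3.19 to 3.22), intervals that cover counting error of PCR reads only. Every heart lay below every MI node, and adjuvant node 1 was the highest node library.

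**Figure D1:**
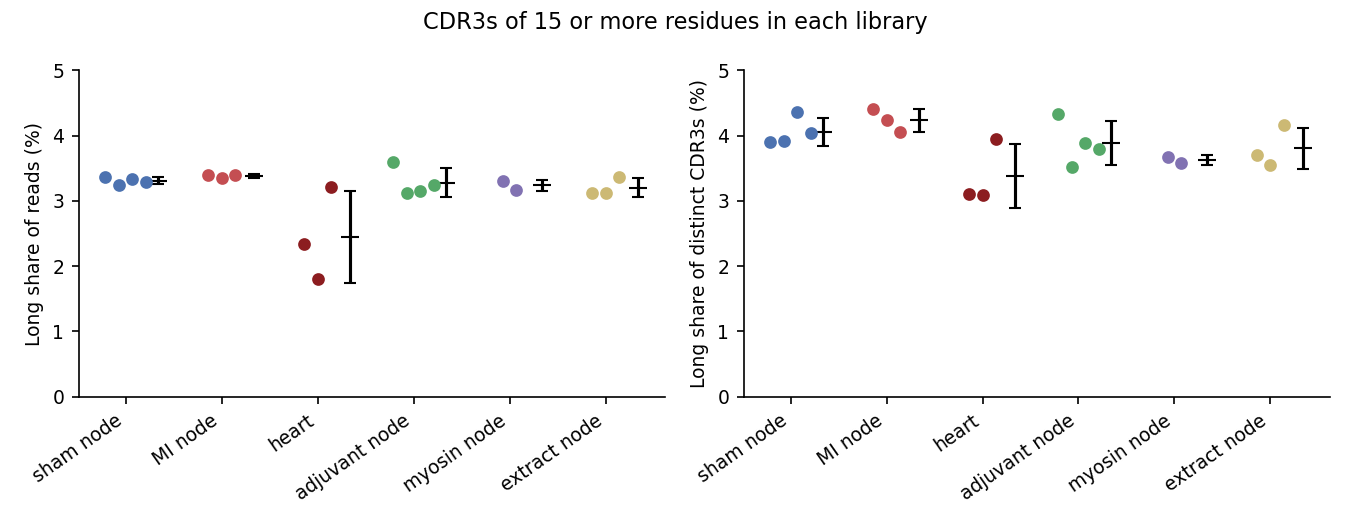
Long share of reads (left, percent of all reads) and of distinct CDR3s (right, percent, after drawing equal reads within the node libraries or within the hearts) for each library, as points by group, with the group mean and SD as a black dash and bar. Node libraries sit between 3.12% and 3.596% of reads, and the 3 hearts spread from 1.80% to 3.21%.

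No comparison of the long share of reads between groups passed the exact two-sided permutation test of the group labels, adjusted by Benjamini-Hochberg over the 6 comparisons. The question asked of the mediastinal nodes was whether infarction differs from surgery alone. MI nodes averaged 3.38% ± 0.0274 (SD, n = 3) and sham nodes 3.31% ± 0.0523 (n = 4), a difference of 0.0742 percentage points (exact permutation p = 0.114, adjusted p = 0.343), and the ranges overlapped. For immunization, the 5 antigen nodes averaged 3.22% ± 0.114 and the adjuvant nodes 3.28% ± 0.221, a difference of -0.0586 points (exact permutation p = 0.683, adjusted p = 0.933). Myosin nodes alone differed from adjuvant nodes by -0.0395 points and extract nodes alone by -0.0714 points (exact permutation, adjusted p = 0.933 for both). Sham nodes differed from adjuvant nodes by 0.0299 points (exact permutation, adjusted p = 0.933). Hearts averaged 2.45% ± 0.710 against the 3.38% of MI nodes, a difference of -0.932 points (exact permutation p = 0.100, the smallest that 3 against 3 allows, adjusted p = 0.343). The sign of this last difference was not stable to the length limit or to the largest clones. With a limit of 14 residues hearts were 1.46 points higher, and with each library's 100 most abundant CDR3s left out they were 0.363 points higher.

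Counted as distinct CDR3s after drawing equal reads, long CDR3s were 4.06% ± 0.216 in sham nodes, 4.24% ± 0.174 in MI nodes, 3.89% ± 0.338 in adjuvant nodes, 3.63% ± 0.0726 in myosin nodes and 3.80% ± 0.320 in extract nodes. At the shallower depth shared with the MI nodes, hearts held 3.38% ± 0.493 and MI nodes 4.23% ± 0.1998, without overlap. None of the 6 comparisons passed (exact permutation, adjusted p from 0.543 to 0.743).

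Length classes were also fitted together, from 8 or fewer to 20 or more residues, with edgeR's quasi-likelihood test on read counts. Between node groups, 0 of the 6 classes of 15 or more residues passed in MI against sham nodes, antigen against adjuvant nodes, or sham against adjuvant nodes. An unadjusted p under 0.05 was found for 0 of them, and DESeq2 also called 0. Over all 13 classes of the fit, 0%, 7.69% and 0% passed in these comparisons, the called class being 12 residues. In hearts against MI nodes 4 of the 6 long classes were lower, beside 46.2% of all 13 classes called. Reads of 16 residues were 0.294% of reads in hearts and 0.527% in MI nodes (log2 fold change -0.84 ± 0.35 SE, adjusted p = 0.0487, edgeR). Reads of 19 residues and of 20 or more were found in no heart (edgeR adjusted p = 0.00335 for both). Both classes entered the fit through the MI nodes alone, so they could be called only lower. Reads of 18 residues were 0.00025% of reads in heart 2, at 0 in hearts 1 and 3, and 0.0216% in MI nodes (edgeR adjusted p = 0.00803). Among all long CDR3s, lengths of 19 and of 20 or more were 0.0788% and 0.0678%, both under the share of up to 0.726% that 0 of the 413 distinct long heart CDR3s allows, so by distinct CDR3s a lack of these lengths was not detectable in the hearts. Classes of 15 and 17 residues did not pass (edgeR adjusted p = 0.344 and 0.897). The count of calls fell to 0 when any 1 MI node was left out. A class entered the fit with reads in 3 or more libraries. Classes of 19 and of 20 or more residues had reads in the 3 MI nodes only, so without any 1 of these nodes they were not tested. Classes of 16 and 18 residues also had heart reads, so they were still tested and no longer passed. With the replicate number as a block the count fell to 1.

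Long CDR3s differed in the proportions of the segments they used. In every node library they were richer in TRBV5, TRBV2 and TRBV17 and in TRBJ2-2, TRBJ2-3 and TRBJ2-4 than CDR3s of 10 to 14 residues, called shorter here. They were poorer in TRBV20, TRBV4, TRBV15, TRBV14 and TRBV19 and in TRBJ1-1, TRBJ1-2 and TRBJ2-7. Each segment's share of long reads was divided by its share of shorter reads within a library, and the log2 ratio was tested by a two-sided permutation test that flips the signs of the 16 ratios. The smallest p this test can give is 3.05e-05. Segments with at least 0.1% of reads in every node library were tested, 16 TRBV and 11 TRBJ.

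TRBV segments encode the start of the CDR3. Among them 4 of 16 were higher in long reads (25.0%) and 10 of 16 were lower (62.5%). TRBV5 supplied 42.0% ± 3.12 of long reads (lowest 37.6%, median 42.2%, highest 46.4%) against 19.7% ± 1.02 of shorter reads, a log2 ratio of 1.09 ± 0.07 (SD), higher in 16 of 16 libraries (permutation adjusted p = 4.44e-05). The ranges did not come near each other. Its commonest start, read from the tables for up to 5 residues, is ASSQD, which TRBV2 shares. TRBV2 supplied 8.63% ± 1.09 of long and 4.56% ± 0.422 of shorter reads (log2 ratio 0.91), also higher in 16 of 16. TRBV5 and TRBV2 together held 50.6% ± 3.53 of long reads and 24.3% ± 1.23 of shorter reads, a pair chosen after its values were seen. TRBV17, whose commonest start is ASSR, supplied 1.10% against 0.722% (log2 ratio 0.60, 16 of 16). TRBV1, with the start TCSAD, was higher by 0.16 on the log2 scale in 14 of 16 libraries (permutation adjusted p = 0.000628), a direction that was lost at a limit of 16 residues (-0.01). TRBV3 and TRBV16 had log2 ratios of 0.18 and 0.06 and did not pass (permutation adjusted p = 0.0567 and 0.717). Counted by distinct CDR3s, TRBV3 turned to -0.48 (permutation adjusted p = 4.07e-05).

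The 3 TRBV segments with the lowest ratios, TRBV20, TRBV4 and TRBV15, have a commonest start of 3 residues in these tables. A start ends where no next residue reaches 30% of the CDR3s matched so far. A segment may therefore encode more than is given. TRBV20, whose commonest start is GAR, supplied 0.603% ± 0.142 of long reads (lowest 0.394%, median 0.548%, highest 0.948%) against 3.62% ± 0.182 of shorter reads, a log2 ratio of -2.62 ± 0.31. TRBV4 and TRBV15, both starting ASS, had log2 ratios of -1.26 and -1.06. TRBV14, starting ASSF, fell from 13.4% of shorter to 7.45% of long reads (log2 ratio -0.88), and TRBV31, starting AWSL, had a log2 ratio of -0.84. TRBV19, starting ASSI and the largest segment of shorter reads at 23.6%, supplied 14.2% ± 2.10 of long reads (log2 ratio -0.75). Each of these 6 was lower in 16 of 16 libraries (permutation adjusted p = 4.44e-05). The TRBV13 family was lower as well, with 7.46% ± 0.598 of long and 9.53% ± 0.2995 of shorter reads. Its members TRBV13-1, TRBV13-2 and TRBV13-3 had log2 ratios of -0.49, -0.18 and -0.72 and all passed. TRBV29 was lower in 14 of 16 libraries (log2 ratio -0.69).

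TRBJ segments encode the end of the CDR3. Their commonest ends were read from the tables for up to 6 residues, so a segment may encode more than is given. Among the 11 tested, 5 were higher in long reads (45.5%) and 5 were lower (45.5%). TRBJ2-3, whose end reads SAETLY, supplied 23.2% ± 2.18 of long reads (lowest 20.6%, median 23.1%, highest 29.8%) against 10.95% ± 0.509 of shorter reads (log2 ratio 1.08 ± 0.15). TRBJ2-2, ending NTGQLY, supplied 11.1% against 5.35% (1.04), and TRBJ2-4, ending SQNTLY, 15.1% against 8.31% (0.86). These 3 were higher in 16 of 16 libraries (permutation adjusted p = 4.80e-05). TRBJ2-1, ending NYAEQF, was higher by 0.22 in 14 of 16 libraries, and TRBJ1-3, ending SGNTLY, by 0.11 in 11 of 16 (permutation adjusted p = 0.0394), which turned to -0.35 at a limit of 16 residues. TRBJ1-4, ending SNERLF, had a log2 ratio of -0.05 and did not pass (permutation adjusted p = 0.154).

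TRBJ1-2, whose commonest end NSDYT has 5 residues, supplied 0.785% ± 0.224 of long reads (lowest 0.495%, median 0.748%, highest 1.29%) against 4.91% ± 0.319 of shorter reads (log2 ratio -2.70 ± 0.42). TRBJ1-1, the other segment with an end of 5 residues, NTEVF, supplied 3.01% against 14.8% (-2.33). TRBJ2-7, with the end SSYEQY of 6 residues, was also low, at 3.45% of long and 12.1% of shorter reads (-1.82). These 3 were lower in 16 of 16 libraries. TRBJ1-5, ending NNQAPL, had a log2 ratio of -0.90 in 16 of 16 libraries, and TRBJ2-5, ending NQDTQY, one of -0.19 in 14 of 16. By cluster, TRBJ2 held 72.8% ± 2.15 of long reads and 56.2% ± 3.05 of shorter reads, leaving TRBJ1 with 27.2% and 43.8%. Of all segment pairs the most used, TRBV5 with TRBJ2-3, made 10.7% ± 1.60 of long reads (8.03% to 13.9%) and 2.15% ± 0.186 of shorter reads. The next pairs, TRBV5 with TRBJ2-4 and with TRBJ2-2, made 6.03% and 5.27% of long reads against 1.39% and 1.05% of shorter reads.

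**Figure D2:**
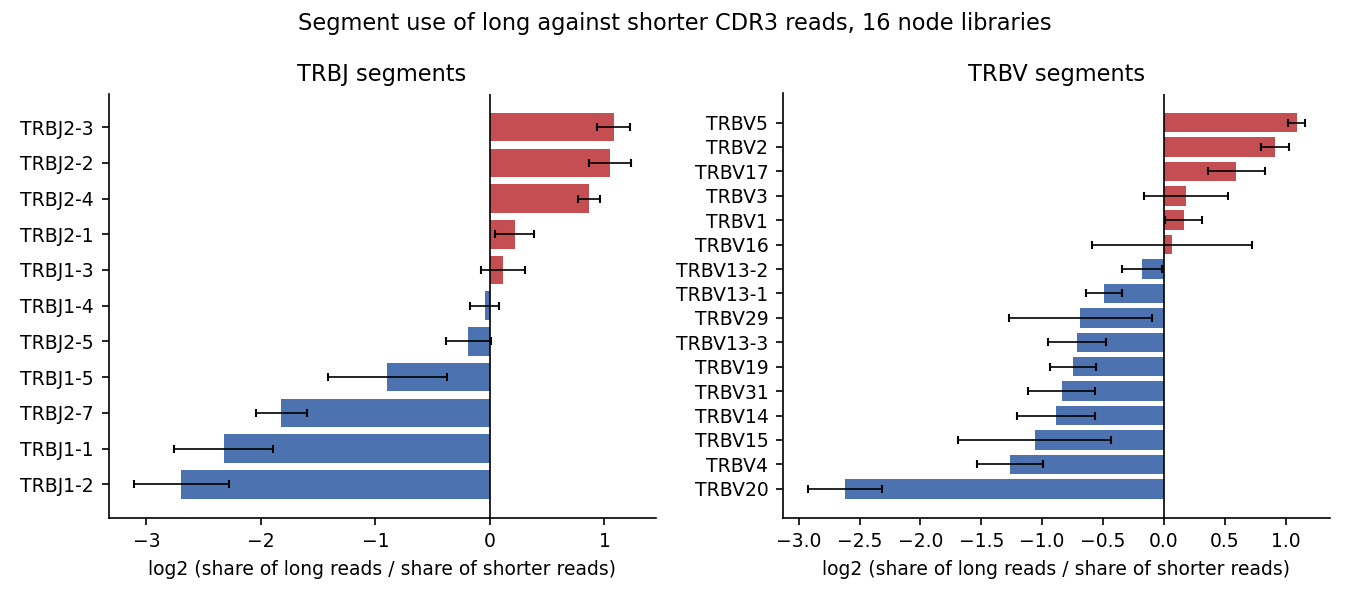
Mean log2 ratio of each segment's share of long reads to its share of shorter reads over the 16 node libraries, with SD bars, for TRBJ (left) and TRBV (right), red where the mean is above 0 and blue where it is below. TRBV3, TRBV16 and TRBJ1-4 did not pass the test. TRBV5 and TRBJ2-3 stand at 1.09 and 1.08, TRBV20 and TRBJ1-2 at -2.62 and -2.70.

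The difference in length lay mostly outside the commonest starts and ends, and long CDR3s were richer in glycine. Long CDR3s averaged 15.2 residues and shorter ones 12.1, over distinct CDR3s after drawing equal reads. Residues matching the commonest TRBV start numbered 3.77 ± 0.0404 in long and 3.23 ± 0.0320 in shorter CDR3s. Residues matching the commonest TRBJ end numbered 5.44 ± 0.0417 and 4.80 ± 0.0312, a difference of 0.636. A longer string has more room for both ends, so both differences are given as a description with no test. The remaining middle had 6.04 ± 0.0851 residues in long and 4.11 ± 0.0690 in shorter CDR3s. It includes any segment residues beyond the commonest start and end. Glycine was counted over the whole string and not in the middle alone. Glycine made 15.6% ± 0.320 of residues in long and 12.3% ± 0.253 in shorter CDR3s (lowest 15.0% and 11.9%, median 15.6% and 12.3%, highest 16.2% and 12.7%), without overlap. The difference was 3.28 percentage points in 16 of 16 libraries (sign-flip permutation p = 3.05e-05).

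Leucine was also more frequent, by 1.64 points, and proline by 0.619 points. Glutamate, phenylalanine and tyrosine were less frequent, with differences of -1.47, -1.04 and -0.92 points. These residues and the motifs that follow were chosen after values were seen and carry no test. A pair of neighbouring glycines occurred in 50.3% ± 2.48 of long and 23.2% ± 0.892 of shorter CDR3s. The TRBD2 cores TGG, LGG and WGG occurred in 16.6%, 12.4% and 7.53% of long CDR3s and in 5.60%, 3.31% and 1.89% of shorter ones. The cores are given next by TRBJ cluster. WGG occurred in 10.01% ± 1.01 of long CDR3s with a TRBJ2 segment and in 0.192% ± 0.221 of those with a TRBJ1 segment. LGG occurred in 16.3% ± 1.67 and 0.662% ± 0.250 of them. TGG, which TRBD1 can also encode, occurred in 19.1% ± 1.14 and 9.01% ± 1.89. QGG occurred in 1.65% of long CDR3s with TRBJ2 and 3.17% with TRBJ1, and RGG in 2.26% and 2.15%. The start ASSQ was carried by 35.3% ± 2.44 of long and 14.2% ± 1.16 of shorter CDR3s.

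Long CDR3s were far more private than shorter ones. The measure was the share of a library's distinct CDR3s that were listed in at least 1 other node library, after drawing 7534295 reads from each. It was 12.8% ± 1.15 for long CDR3s (lowest 10.2%, median 13.3%, highest 14.1%) and 52.6% ± 2.55 for shorter ones (lowest 47.8%, median 53.0%, highest 56.4%), with no overlap. The difference was -39.9 percentage points, lower in 16 of 16 libraries (sign-flip permutation p = 3.05e-05), and -40.5 points in the 11 libraries without the few-read ones (p = 0.000977, permutation). Sharing fell with each added residue, from 62.6% ± 2.20 at 10 residues to 47.3% at 13, 31.8% at 14, 15.3% ± 1.25 at 15, 3.20% ± 1.15 at 16 and 0.746% ± 0.971 at 17. The change across the limit of the rule, from 31.8% to 15.3%, was part of that decline.

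**Figure D3:**
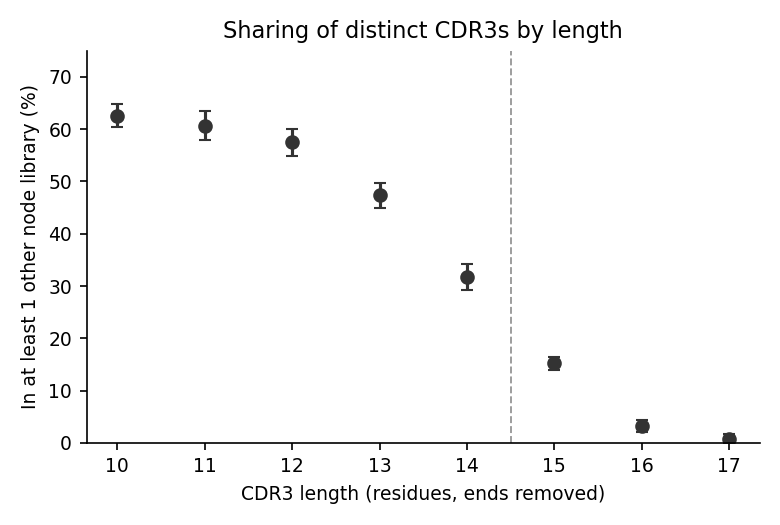
Share of distinct CDR3s listed in at least 1 other node library (percent, mean and SD over 16 node libraries at equal reads) against CDR3 length in residues. The dashed line marks the limit of 15 residues. The share goes from 62.6% at 10 residues to 0.746% at 17.

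The mean reads per distinct CDR3 were also fewer, 78.4 ± 40.2 for long and 94.5 ± 49.6 for shorter CDR3s. The log2 ratio of these means within libraries was -0.27 ± 0.08, lower in 16 of 16 (sign-flip permutation p = 3.05e-05). The medians did not share this direction. The median long CDR3 had fewer reads than the median shorter one in 6 of 16 node libraries, as many in 3 and more in 7. The 7 lay in all node groups, among them adjuvant node 2 (39 against 37 reads) and myosin node 2 (40 against 33). The 6 were sham node 3 and the libraries of mostly few-read long CDR3s. By abundance, long CDR3s were 4.25% ± 0.477 of the CDR3s with under 10 reads, 3.57% of those with at least 10 but under 100, 3.47% of those with at least 100 but under 1000 and 1.40% ± 0.899 of those with 1000 or more. Read classes were chosen after values were seen. In each read class under 1000 reads the libraries' values for long and shorter CDR3s did not overlap. Among CDR3s with at least 100 but under 1000 reads, 19.4% ± 1.70 of long ones (15.3% to 21.9%) and 69.5% ± 4.08 of shorter ones (65.1% to 78.6%) were in another node library. Among those with under 10 reads the values were 7.59% ± 1.33 and 39.0% ± 3.03. With 1000 reads or more, where a library held at most 60 long CDR3s, the values ranged from 0% to 100% for long and from 69.3% to 98.8% for shorter CDR3s, and overlapped.

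Over all nodes, 59413 of 62950 long CDR3s at equal reads (94.4%) were in 1 library only, against 76.1% of 976211 shorter ones. A further 2524 long CDR3s were in 2 libraries and 587 in 3. None was in more than 13 of the 16 libraries, and 306 shorter CDR3s were in all 16. Sharing among long CDR3s is given here by segment, a split chosen after values were seen, in which a CDR3 listed with several segment pairs counts once for each pair. Of long CDR3s with TRBV2 18.7% ± 4.26, and of those with TRBV5 18.2% ± 2.38, were in another library, and of those with TRBV19 and TRBV14 7.14% ± 2.09 and 6.30% ± 3.19. The shares were 14.7% ± 1.38 for TRBJ2 and 7.39% ± 1.17 for TRBJ1, where shorter CDR3s had 56.8% and 56.6%. Within TRBJ2, TRBJ2-3 had 19.7% ± 2.19.

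The 35 long CDR3s listed in 8 or more node libraries were alike in build. All 35 had 15 residues, 33 used TRBV5, 33 used a TRBJ2 segment (17 TRBJ2-3, 9 TRBJ2-4 and 6 TRBJ2-2), 29 began ASSQ and 30 contained TGG, LGG or WGG. None used TRBV2. Of all long CDR3s, 78.8% had 15 residues, and in node libraries 35.3% of them began ASSQ. Long node reads were 42.0% TRBV5 and 72.8% TRBJ2. The most widespread was in 13 libraries, a TRBV5 and TRBJ2-2 CDR3 that begins ASSQD, contains WGG and ends NTGQLY, with 40 to 667 reads where listed (median 243). It was in 3 of 4 sham, 3 of 3 MI, 3 of 4 adjuvant, 2 of 2 myosin and 2 of 3 extract nodes. A second in 13 libraries begins ASSPR, contains LGG and ends SAETLY, with 2 to 1423 reads (median 104). Its reads were split over 6 segment pairs, TRBV5 with TRBJ2-3 holding 47.4%, so its TRBV segment is uncertain. The third, again TRBV5 with TRBJ2-2 and starting ASSQD, had 47 to 437 reads, and the fourth, TRBV5 with TRBJ2-4, starting ASSQD and containing WGG, had 28 to 569. The fifth, in 12 libraries, pairs TRBV5 with TRBJ2-3, starts ASSQG, contains LGG and had 2 to 1034 reads. All 5 were in all 3 MI nodes and both myosin nodes, and none was in a heart.

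Sharing within groups was not the same from group to group, but libraries per group and depth of listing differ as well. In 2 or more libraries of their own group were 440 of 19329 long CDR3s of sham nodes (2.28%), 702 of 23529 of MI nodes (2.98%), 135 of 10587 of adjuvant nodes (1.28%), 60 of 6794 of myosin nodes (0.883%) and 48 of 6596 of extract nodes (0.728%). Of shorter CDR3s, 15.2%, 17.5%, 12.0%, 9.07% and 7.98% were so shared in the same groups. The groups thus ranked in the same order for long and shorter CDR3s. In every library of the group were 5, 88, 0, 60 and 1 of the long CDR3s, beside 3966, 22846, 1671, 14598 and 1792 shorter ones. Compared over libraries, the share of a library's long CDR3s found in another node library was 13.4% ± 0.0734 in MI and 12.9% ± 1.22 in sham nodes (difference 0.545 points), 12.6% ± 1.22 in antigen and 12.4% ± 1.59 in adjuvant nodes (0.108 points). Sham and adjuvant nodes differed by 0.418 points. None of the 3 comparisons passed (exact permutation, adjusted p = 0.810 for all).

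The use of segments among long reads was fitted across all segments with edgeR's quasi-likelihood test, with long reads as the library size. Between node groups, 0 of 22 TRBV segments passed in MI against sham nodes, in antigen against adjuvant nodes or in sham against adjuvant nodes (0% in each). An unadjusted p under 0.05 was found for 0, 3 and 4 of them, and DESeq2 called 0 in each. The smallest p after infarction was that of TRBV19, with 15.7% ± 0.842 in MI and 14.3% ± 0.942 in sham nodes (log2 fold change 0.14 ± 0.13 SE, edgeR adjusted p = 0.915). TRBV2 (7.37% and 8.16%) and TRBV31 (1.99% and 2.30%) came next at the same adjusted p.

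After antigen, TRBV19 held 15.1% ± 2.30 of long reads against 12.0% ± 1.91 with adjuvant (log2 fold change 0.33 ± 0.11 SE, edgeR adjusted p = 0.0808). TRBV5 held 44.1% and 44.4% in the myosin nodes and 37.6%, 41.5% and 37.9% in the extract nodes, against 46.1%, 44.4%, 45.0% and 46.4% in adjuvant nodes (-0.15 ± 0.05 SE, edgeR adjusted p = 0.0808). The extract nodes and myosin node 1 lay below every adjuvant node, and myosin node 2 lay at the lower end of the adjuvant range. TRBV29 held 0.158% and 0.330% (edgeR adjusted p = 0.229). None of the 3 passed. Between sham and adjuvant nodes the smallest p was again that of TRBV5, with 40.8% ± 2.88 and 45.5% ± 0.924 (edgeR adjusted p = 0.162), followed by TRBV23 and TRBV20 (adjusted p = 0.199 for both). TRBV23 was listed in no adjuvant node and at up to 0.0527% of long reads in sham nodes, and TRBV20 held 0.482% and 0.734%.

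Of 11 TRBJ segments, 0 passed in each of these comparisons (0% in each), with an unadjusted p under 0.05 for 0, 0 and 3, and 0 called by DESeq2. The smallest p values belonged to TRBJ2-5, TRBJ1-3 and TRBJ1-2 for MI against sham nodes (edgeR adjusted p = 0.813), to TRBJ2-1, TRBJ1-1 and TRBJ2-4 for antigen against adjuvant (0.645, 0.655 and 0.655), and to TRBJ1-3, TRBJ2-5 and TRBJ2-4 for sham against adjuvant (0.115). TRBJ1-3 held 8.23% ± 1.29 in sham and 10.3% ± 1.44 in adjuvant nodes. T cells that use TRBV12-1, TRBV12-2, TRBV15, TRBV16 or TRBV26 are known to be deleted by endogenous retroviral superantigens in this strain. These 5 segments together held 1.92% ± 0.572 of long reads over all nodes and 2.30% ± 0.659 of shorter reads.

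Single CDR3s were fitted across the whole node table. A CDR3 entered when 3 or more libraries listed it and its reads summed to 20 or more. Of the 121771 that entered, 1010 were long, and the remaining long CDR3s were too rare or too private to be tested. In MI against sham, antigen against adjuvant and sham against adjuvant nodes, 0 long CDR3s passed (edgeR), as did 0% of all CDR3s in each. An unadjusted p under 0.05 was found for 149, 272 and 317 of the 1010 (14.8%, 26.9% and 31.4%), beside 9.77%, 21.8% and 25.6% of all CDR3s. DESeq2 gave a p to 85861 CDR3s, of which 608 were long, and called 66, 150 and 87 of these (10.9%, 24.7% and 14.3%), beside 5.09%, 17.3% and 9.79% of all. The difference between these shares was not tested. The 3 with the smallest p after infarction shared edgeR adjusted p = 0.455. The first, TRBV14 with TRBJ2-1 and containing TGG, had 847 reads in MI node 3, none in the other MI and sham nodes, and 78 and 294 in myosin node 1 and extract node 2. The second, TRBV5 with TRBJ2-3, had 40, 0 and 543 reads in MI nodes and none in sham nodes. The third, TRBV5 with TRBJ2-3 and starting ASSL, had 152, 23 and 0.

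After antigen the 3 smallest shared edgeR adjusted p = 0.209. A TRBV5 and TRBJ1-4 CDR3 had 168 and 1258 reads in adjuvant nodes 2 and 3 and none in antigen nodes. A TRBV5 and TRBJ2-3 CDR3 that contains WGG had 1201 reads in adjuvant node 1 and none in antigen nodes. A TRBV4 and TRBJ2-3 CDR3 that contains LGG had 78 reads in myosin node 2, 2625 in extract node 3 and none in adjuvant nodes. In sham against adjuvant nodes (edgeR adjusted p = 0.195) the first used TRBV5 and TRBJ2-3, contained WGG and had 2094 reads in sham node 1 and none in the other sham or the adjuvant nodes. The second was the CDR3 starting ASSL named above, with 814 and 656 reads in adjuvant nodes 3 and 4. The third, mainly TRBV19 with TRBJ2-3, had 1358 and 184 in adjuvant nodes 1 and 2 and none in sham nodes. Each of these rests on reads of 1 or 2 libraries of a group.

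The most abundant long CDR3 of a node library was small. It held between 0.0104% of all reads (myosin node 1, TRBV14 with TRBJ2-3, 898 reads) and 0.0688% (adjuvant node 3, TRBV14 with TRBJ2-3, 5621 reads). By segment, 5 of the 16 used TRBV5, 8 used TRBV14 and 3 used TRBV19. In sham nodes they were TRBV5 with TRBJ2-3 (4259 reads), TRBV5 with TRBJ2-2 (1791), the widespread CDR3 starting ASSPR (1423) and a TRBV14 with TRBJ2-5 of 16 residues (5262). In MI nodes they were TRBV5 with TRBJ1-4 (4617 reads), TRBV14 with TRBJ2-1 (2464) and TRBV14 with TRBJ2-3 (2483). In the other adjuvant nodes they were TRBV5 with TRBJ1-5 (2225), TRBV14 with TRBJ1-3 (3011) and TRBV19 with TRBJ1-4 (2792). Myosin node 2 had TRBV19 with TRBJ2-3 (1075), and the extract nodes had TRBV14 with TRBJ2-3 of 16 residues (4485), TRBV14 with TRBJ2-5 (3695) and TRBV19 with TRBJ1-3 of 17 residues (3322). Of these 16, 9 were in no other library.

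The infarcted hearts held few long CDR3s, most reads of which came from a handful of clones. The 10 largest long CDR3s took 98.6%, 80.1% and 85.5% of the long reads of hearts 1, 2 and 3, and 2.64% to 12.0% in node libraries, with no overlap. They were taken from 90, 129 and 194 long CDR3s in the hearts and from 1600 to 9792 in node libraries. The contrast cannot be told apart from these unlike numbers. No such share is given for shorter CDR3s, so it is not shown to be particular to long ones. Of the 413 long CDR3s in hearts, 56, 76 and 117 had under 10 reads in hearts 1, 2 and 3, and 10, 17 and 24 had 100 or more. In heart 1 a TRBV19 and TRBJ1-4 CDR3 of 15 residues, starting ASSI and ending SNERLF, had 27683 reads, 1.14% of all reads (95% Wilson interval 1.13 to 1.15) and 48.8% of the long reads, and was listed in no node. In heart 2 the largest was a TRBV5 and TRBJ2-1 CDR3 of 16 residues with 8926 reads (0.203%), and in heart 3 a TRBV14 and TRBJ2-7 CDR3 with WGG and 22878 reads (0.446%), listed in no node.

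No long CDR3 was found in more than 1 heart, where 32 of 10375 shorter heart CDR3s (0.308%) were in 2 or more at equal reads, so the absence is near that background. Of the 413, 19 were listed in an MI node and 24 in any node, at 7534295 reads per node. By heart, 4.44%, 6.20% and 3.61% of distinct long CDR3s were in an MI node, against 21.4%, 22.7% and 24.2% of shorter ones. In any node were 5.56%, 7.75% and 4.64% of distinct long CDR3s, against 31.3%, 33.2% and 33.0% of shorter ones. The share of long heart reads whose CDR3 was listed in an MI node was 8.93%, 21.3% and 14.9% in hearts 1, 2 and 3, against 65.2%, 64.7% and 71.3% of shorter heart reads, a gap in the same direction in each of the 3 hearts (a sign-flip test of 3 pairs cannot reach 0.05, so none is given). Against any node the shares were 8.95%, 28.3% and 14.9% of long and 74.5%, 76.5% and 80.5% of shorter heart reads. In heart 2, CDR3s listed in myosin node 2 held 6.97% of the long reads. Of the long CDR3s shared by a heart and an MI node, the 5 with most heart reads were each in 1 heart and 1 MI node and in no other node. The largest, TRBV19 with TRBJ2-3 and LGG, had 18338 reads in heart 3 and 73 in MI node 1. Next came the 16-residue TRBV5 and TRBJ2-1 CDR3 of heart 2 with 12 reads in MI node 2, and a TRBV5 and TRBJ2-4 CDR3 with LGG that had 4762 reads in heart 1 and 16 in MI node 1. A TRBV5 and TRBJ2-1 CDR3 of 17 residues had 3206 reads in heart 2 and 258 in MI node 1, and a TRBV5 and TRBJ2-2 CDR3 of 16 residues had 2728 in heart 3 and 75 in MI node 3.

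**Figure D4:**
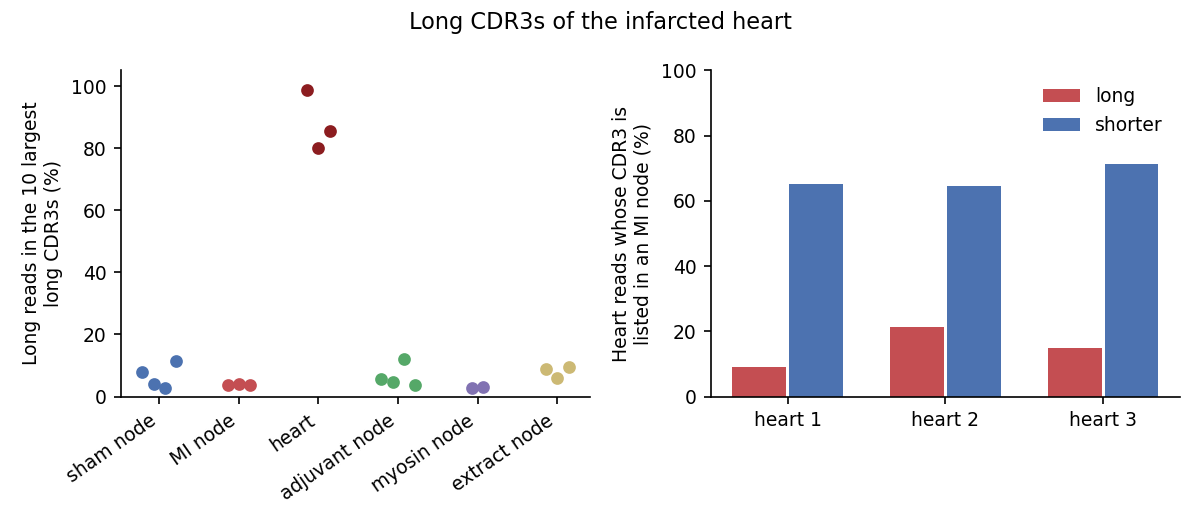
Left, share of each library's long reads held by its 10 largest long CDR3s (percent, 1 point per library). Right, share of each heart's reads whose CDR3 was listed in any MI node (percent), for long (red) and shorter (blue) CDR3s. The hearts lie at 80.1% to 98.6% on the left, and on the right the long bars reach at most 21.3%.

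In hearts against MI nodes 4 of 20 TRBV segments passed in long reads (20%), all lower in hearts, and 2 of 11 TRBJ segments (18.2%), both lower. TRBJ1-2 and TRBJ1-5 had no long read in any heart, where MI nodes had 0.877% ± 0.121 and 1.65% ± 0.661 of long reads (edgeR adjusted p = 2.55e-33 and 9.74e-18). With each heart set to 3 reads, they were at least 242-fold and 455-fold lower in the hearts, a bound on reads and not on clones. TRBV26 and TRBV30 were also at 0, at least 38.9-fold and 3.84-fold lower by reads (edgeR adjusted p = 2.50e-05 and 0.000291). Segments with no heart read entered the fit through the MI nodes alone. They could be called only lower, so nothing is read from the direction of these calls. TRBV12-2 and TRBV15 each had 2 reads in heart 3 (0.00122% of long reads) and none in hearts 1 and 2, against 0.0729% and 0.507% in MI nodes (edgeR adjusted p = 0.000335 and 0.00615). Read counts overstate the depth here, since 0 of the 413 distinct long heart CDR3s still allows a share of up to 0.726%. In the MI nodes TRBJ1-2 made 0.916% and TRBJ1-5 1.93% of distinct long CDR3s, but TRBV26 and TRBV30 only 0.187% and 0.0880%, so for TRBV26 and TRBV30 a difference was not detectable by distinct CDR3s. The bound takes the 413 as independent, though 56, 76 and 117 of them had under 10 reads in hearts 1, 2 and 3. Only 10, 17 and 24 had 100 or more reads. With fewer independent CDR3s it would be higher. Whether TRBJ1-2 and TRBJ1-5 would then stay above it was not tested. Fitted on distinct CDR3s, 0 TRBV and 2 TRBJ segments passed. Leaving out MI node 1, 2 or 3 gave 2, 2 and 0 TRBV calls and 0 TRBJ calls each time. A segment entered the fit with reads in 3 or more libraries. TRBJ1-2, TRBJ1-5, TRBV26 and TRBV30 had reads in the 3 MI nodes only, so without any 1 of these nodes they were not tested. Their loss there follows from the filter, and nothing is read from it. The replicate block gave 0 TRBJ calls. Of the superantigen-deleted segments, long reads were at 0 in hearts 1 and 2 and 1.96% in heart 3, where shorter heart reads held 3.28%, 3.18% and 3.23%.

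TRBV5 supplied 20.4%, 40.8% and 42.3% of the long reads of hearts 1, 2 and 3 against 40.5% ± 2.29 in MI nodes, which did not pass (edgeR adjusted p = 0.955). TRBV29 was at 0.516%, 9.23% and 9.56% in the hearts and at 0.983%, 0.362% and 0.215% in the MI nodes, which overlapped and did not pass (edgeR adjusted p = 0.291). By distinct CDR3s TRBV29 made 39 of the long heart entries (8.74%) and 1.17% of those of the MI nodes, a segment chosen after its values were seen. The TRBJ2 cluster took 50.8%, 68.3% and 88.5% of long heart reads and 73.0% ± 1.44 in MI nodes.

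Of 24255 CDR3s fitted in hearts and MI nodes, 88 were long. None was higher in hearts (0.239% of all CDR3s were) and 87 were lower, beside 95.9% of all CDR3s. A CDR3 with reads in 3 libraries here had to be spread over the MI nodes, and 86 of the 88 had no heart read, so the count follows from the filter and nothing is read from it. The 10 with the smallest p (edgeR adjusted p from 0.000684 to 0.000760) all had 15 residues, 9 used TRBV5 and 1 TRBV19, and each had between 49 and 336 reads in each MI node and none in a heart.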

How the data were processed

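Each library was deposited as a table of CDR3 amino acid strings with a read count, and a TRBV and a TRBJ name, per the file contents. Per the labels' protocols, TRB transcripts were amplified by multiplex PCR, pooled at equal mass and sequenced. The lowest count listed was 2. The sources used here name no aligner, caller or genome build. Reads carry no molecular identifiers, so intervals and floors of 3 reads cover counting error only.

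Counts of 1 CDR3 string were summed over its segment pairs within a library. Shares of distinct CDR3s and sharing used reads drawn to 7534295 per node library, or 2426715 for hearts with MI nodes. A segment's commonest start (up to 5 residues) or end (up to 6) was read from the tables, extending while at least 30% of the CDR3s matched so far had the same next residue. Single values were compared by exact two-sided permutation of group labels, or by sign flips over the 16 node libraries. Segments, length classes and CDR3s were fitted with edgeR 4.0.16 in R 4.3.3 (quasi-likelihood, robust, Benjamini-Hochberg at 0.05), 1 fit for the nodes and 1 for hearts with MI nodes, and both kinds of test were tested on simulated data. DESeq2 1.42.0, TMM, other length limits, other filters, a replicate block and leaving out libraries were alternatives. Python 3.11.15 with numpy 2.4.6 and pandas 2.3.3 did the rest.

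The members and lists were chosen with earlier results of these data known. Named were the segments and CDR3s that passed, up to 12 and 10 by smallest p, or otherwise the 3 with the smallest p. Also named were all TRBJ segments and the 6 TRBV segments with the largest ratio in each direction, each library's largest long CDR3, the 5 most widespread, and the 5 largest shared by heart and MI node. Heart TRBV29, the motifs and residues, and the libraries set apart for few reads were chosen after seeing the data.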

Additional observations from a re-analysis of the deposited data

Results flagged for a closer look

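The long share of distinct CDR3s in extract node 3 stood apart from the other antigen nodes. It was 4.16%, where the other 4 lay between 3.55% and 3.70%, a gap of 0.756 of the whole range. In that library 61.8% of the long CDR3s had under 10 reads. Of the 9 sets of libraries and measures looked at, this was the only one to stand apart, and chance gives about 1 in 20 per set.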

How the results depend on the processing

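Over 37 results and 535 alternatives, 468 kept their direction and side of the threshold, or their count within 1.5 times. The differences between long and shorter CDR3s in sharing, mean reads and glycine, and both counts of segments called between them did so under every alternative that was run. What moved were the differences between groups, none of which had passed, and the heart counts. The cause was not tested.

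Differences in the long share of reads changed sign at a limit of 14 residues in MI against sham nodes (-0.0546 points), antigen against adjuvant (0.00618), extract against adjuvant (0.0134) and heart against MI node (1.46). At 16 residues they did so in antigen against adjuvant (0.0195), extract against adjuvant (0.0336) and sham against adjuvant (-0.00957). Leaving out the 100 most abundant CDR3s gave -0.0128 in sham against adjuvant and 0.363 in heart against MI node. Without the 5 libraries of mostly few-read CDR3s, chosen after seeing the data, antigen against adjuvant gave 0.0168 and myosin against adjuvant 0.0542. For distinct CDR3s, extract against adjuvant gave 0.0320 at 14 residues, sham against adjuvant -0.0197 at 16, and myosin against adjuvant 0.143 without entries under 10 reads. Sharing in MI against sham, antigen against adjuvant and sham against adjuvant gave -0.0866, -0.381 and -1.04 without entries under 10 reads, and -0.0228, -0.374 and -0.172 without the few-read libraries.

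Counts of calls moved as follows. In sham against adjuvant nodes, TRBV calls were 1 with TMM and 1 at 16 residues, and TRBJ calls 4 by distinct CDR3s. In heart against MI nodes, TRBV calls were 12 at 16 residues and 0 by distinct CDR3s, TRBJ calls 5 at 16 residues, length classes 2 without edgeR's legacy settings, and long CDR3s 45 with a looser filter. DESeq2 called 66, 150 and 87 long CDR3s between nodes (10.9%, 24.7% and 14.3%, beside 5.09%, 17.3% and 9.79% of all CDR3s), where edgeR called 0. The TRBJ heart fit without legacy settings could not be fitted.

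Leaving out 1 library at a time, the share of reads ranged from -0.112 to 0.0478 in antigen, -0.102 to 0.0669 in myosin and -0.155 to 0.0350 in extract against adjuvant nodes, each turning without adjuvant node 1 (myosin also without myosin node 2, 0.0233), and from -0.0236 to 0.136 in sham against adjuvant, turning without adjuvant node 2 or 3. The share of distinct CDR3s in extract against adjuvant ranged from -0.261 to 0.0684, turning without adjuvant node 1 or extract node 2. Sharing ranged from -0.0228 to 0.941, -0.627 to 0.606 and -0.316 to 0.986 in the same order as above, turning without sham node 4, without adjuvant node 3 or either myosin node, and without adjuvant node 3. TRBV calls ranged from 0 to 1 in antigen and 0 to 2 in sham against adjuvant, and 0 to 9 in hearts. TRBJ calls ranged from 0 to 2 in sham against adjuvant and 0 to 3 in hearts, length classes from 0 to 4 and long heart CDR3s from 0 to 88. In the heart fits, segments, classes and CDR3s with reads in the 3 MI nodes only dropped out untested when 1 MI node was left out. Classes of 16 and 18 residues were still tested there and lost their calls.

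The labels do not say whether same-numbered samples share more than a number, such as an animal. Correlations of their deviations were at most 0.0316, although each heart correlated best with the MI node of its number (0.0257, 0.0242 and 0.0316), a hint from the data and not the design. Shorter reads of hearts 1, 2 and 3 were also most often listed in that node (51.0%, 56.7% and 52.9%). Long reads were so in hearts 1 and 2 (8.93% and 17.2%), but those of heart 3 were most often listed in MI node 1 (11.2%). With the replicate block, sharing in MI against sham nodes was -0.0228 points, TRBJ calls were 3 in sham against adjuvant and 0 in hearts, and long length classes and long CDR3s called in hearts were 1 and 0. The heart results rest on 413 long CDR3s, from 5000 sorted cells per library.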
